A study of Homo sapiens with 32 samples.

Results

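Chromatin loops that joined sites at least 1 Mb apart were taken from 4 loop lists made by in situ Hi-C in human HEK293 cells. The members are all loops whose anchor starts lay 1 Mb or more apart on the same chromosome, and there were 1456 of them among 45629 listed loops. Wild-type HEK293 cells gave 402 such loops without treatment and 120 after sorbitol, and HEK293 cells of the genotype eGFP-YAP gave 755 and 179. They are called long loops here, and the 44173 loops under 1 Mb are called shorter loops.

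HEK293 is a transformed human embryonic kidney line, and eGFP-YAP cells carry a green fluorescent fusion of the transcriptional coactivator YAP. Controls were untreated, and treated cells received 200 mM sorbitol, a sugar alcohol that raises the osmotic pressure of the medium, for 1 h. According to the design text the eGFP-YAP cells were starved of serum for 1 h beforehand; whether the wild-type cells were is not given in the sources used here. The labels name 3 wild-type and 4 eGFP-YAP samples per condition, but each list is a single pooled call with no replicate column, so no difference between conditions could be tested and all intervals cover counting error only. The wild-type and the eGFP-YAP lists are also named after different sources, so line and source cannot be told apart. The labels say HEK293 while the growth protocol says HEK293T, and they give neither the promoter nor the clone of the eGFP-YAP line.

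In interphase nuclei cohesin extrudes DNA into loops and stalls at CTCF, a zinc finger protein whose asymmetric binding motif usually points into the loop from both anchors. Most such loops are far shorter than the ones described here. Contacts over longer distances also arise without CTCF, for example between silenced or active chromatin of the same type, between Polycomb-bound developmental genes and between clustered genes that share a nuclear body, such as the histone genes.

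Sequences at anchors of recurrent long loops are shown first, because the orientation of motif matches and the presence of a promoter are among the features compared below. The positions are hg38 coordinates, and the bases come from the hg38 reference. In the first set each line is a match to the CTCF core motif, found on either strand with 1 mismatch allowed, written 5′ to 3′ on the strand of the match; capitals mark the match and lower case the flanks. The first 8 lines are 4 pairs, 1 from each of 4 long loops called in 3 of the lists, with the left match on the plus strand and the right match on the minus strand, that is, facing each other. The loops were chosen for this orientation, so it is no result. None of the 4 pairs was complete at the anchors of all 3 lists, and the TPRG1 and DGKB pairs were complete only in the eGFP-YAP control. Facing matches in at least 1 list were found at 18 of 48 positions of 3 or 4 lists, and the share at other positions was not computed.

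Left anchor, chr3:187741032-187741045, plus strand, near the start of an unnamed protein-coding gene: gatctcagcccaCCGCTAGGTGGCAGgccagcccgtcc

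Right anchor, chr3:188954793-188954806, minus strand, in TPRG1: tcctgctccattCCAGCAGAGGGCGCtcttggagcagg

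Left anchor, chr5:152532813-152532826, plus strand, outside genes: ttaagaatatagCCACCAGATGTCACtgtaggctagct

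Right anchor, chr5:153965224-153965237, minus strand, outside genes: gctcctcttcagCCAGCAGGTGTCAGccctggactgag

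Left anchor, chr7:83936250-83936263, plus strand, outside genes: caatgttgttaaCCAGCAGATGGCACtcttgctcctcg

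Right anchor, chr7:85023264-85023277, minus strand, in SEMA3D: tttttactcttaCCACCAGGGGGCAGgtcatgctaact

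Left anchor, chr7:13277191-13277204, plus strand, outside genes: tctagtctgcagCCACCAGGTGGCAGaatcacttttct

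Right anchor, chr7:14691810-14691823, minus strand, in DGKB: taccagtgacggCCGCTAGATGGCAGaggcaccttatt

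Right anchor of the long loop that reaches the HOXA cluster, chr7:27161136-27161149, minus strand: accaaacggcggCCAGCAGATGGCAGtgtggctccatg

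Left anchor of the longest recurrent loop, chr1:240888216-240888229, plus strand, in RGS7: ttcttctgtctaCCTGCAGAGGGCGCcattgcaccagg

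The second set gives promoters that lay in long-loop anchors, from RefSeq (GRCh38.p14, 250 bases before to 50 after the gene start), with every CG in capitals. TFAP2B started in long-loop anchors of all 4 lists and IGFBP3 in 3 of them. GTPBP6 and SLC25A6 sat at opposite ends of the highest-scoring long loop that was in both sorbitol lists and neither control list. The last line is the centre of the left anchor of a long loop of both control lists with no gene at either end.

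TFAP2B, chr6:50818621-50818920, plus strand: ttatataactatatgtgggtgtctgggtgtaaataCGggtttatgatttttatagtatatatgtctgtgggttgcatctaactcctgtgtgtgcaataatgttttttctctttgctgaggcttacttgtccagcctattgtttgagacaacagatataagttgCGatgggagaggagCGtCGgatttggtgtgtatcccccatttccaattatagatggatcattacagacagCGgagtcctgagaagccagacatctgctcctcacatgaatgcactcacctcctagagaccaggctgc

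IGFBP3, chr7:45921223-45921522, minus strand: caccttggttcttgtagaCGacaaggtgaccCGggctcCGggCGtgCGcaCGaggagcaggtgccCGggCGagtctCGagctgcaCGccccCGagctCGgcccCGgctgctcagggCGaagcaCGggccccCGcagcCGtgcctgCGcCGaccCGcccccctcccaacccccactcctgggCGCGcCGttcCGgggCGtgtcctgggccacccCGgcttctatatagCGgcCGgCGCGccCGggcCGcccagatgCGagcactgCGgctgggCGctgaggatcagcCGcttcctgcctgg

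GTPBP6, chrX:318747-319046, minus strand: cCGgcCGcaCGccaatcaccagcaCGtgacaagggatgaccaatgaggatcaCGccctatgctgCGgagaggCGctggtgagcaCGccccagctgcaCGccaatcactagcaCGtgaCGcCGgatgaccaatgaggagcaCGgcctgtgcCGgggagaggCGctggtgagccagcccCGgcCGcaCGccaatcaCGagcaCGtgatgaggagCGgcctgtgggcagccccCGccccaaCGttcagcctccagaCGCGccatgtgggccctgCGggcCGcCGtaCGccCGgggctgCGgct

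SLC25A6, chrX:1392064-1392363, minus strand: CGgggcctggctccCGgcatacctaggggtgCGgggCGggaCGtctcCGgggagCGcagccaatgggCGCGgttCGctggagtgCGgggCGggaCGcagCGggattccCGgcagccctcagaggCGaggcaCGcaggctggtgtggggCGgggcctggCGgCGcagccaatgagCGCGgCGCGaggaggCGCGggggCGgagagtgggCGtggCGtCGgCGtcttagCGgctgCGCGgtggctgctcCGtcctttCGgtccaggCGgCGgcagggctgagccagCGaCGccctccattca

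Gene-free control anchor, chr1:104782351-104782650, plus strand: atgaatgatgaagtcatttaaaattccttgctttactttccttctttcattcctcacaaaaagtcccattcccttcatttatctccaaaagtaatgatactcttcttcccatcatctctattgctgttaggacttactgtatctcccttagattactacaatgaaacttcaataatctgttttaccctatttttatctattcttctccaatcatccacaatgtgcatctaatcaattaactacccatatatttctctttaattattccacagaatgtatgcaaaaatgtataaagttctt

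The promoters of IGFBP3, GTPBP6 and SLC25A6 hold 36, 31 and 40 CG in 300 bases, the TFAP2B window 5, and the gene-free anchor 0. The GC box GGGCGG, read on both strands, occurs 2, 1 and 4 times in the first 3 of these and 0 times in the TFAP2B window. Over 27195 RefSeq promoters of this length, taken without a filter for gene type, 44.7% hold at least 1 GC box. The genes counted at anchors are protein-coding only, so these sets are unlike. What gene type adds to the difference was not tested. Of the genes that started in long-loop anchors, 30 of 38 matched promoters held it in the wild-type sorbitol list (78.9%, Wilson 95% interval 63.7 to 88.9) and 23 of 45 in the eGFP-YAP control list (51.1%, 37.0 to 65). These 2 lists differ in both line and condition. In the other 2 lists 29 of 41 and 29 of 42 genes matched a promoter, under 80%, so the check is void there and no share is given. Genes at shorter-loop anchors also matched under 80%, at 1959 of 2509 in the wild-type sorbitol and 2009 of 2581 in the eGFP-YAP control list. Whether the shares above are particular to long loops is therefore not shown.

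Long loops were a small fraction of every list, and in both lines the fraction was lower with sorbitol, with intervals that overlapped in wild type and lay just apart in eGFP-YAP. They made up 402 of 15180 loops in the wild-type control (2.65%, Wilson interval 2.41 to 2.92) and 120 of 5906 after sorbitol (2.03%, 1.70 to 2.42). In eGFP-YAP they made up 755 of 18966 (3.98%, 3.71 to 4.27) and 179 of 5577 (3.21%, 2.78 to 3.71). In wild type the ratio of sorbitol to control long loops was 0.299 (exact Clopper-Pearson interval 0.241 to 0.367). In eGFP-YAP the ratio was 0.237 (0.200 to 0.279). For shorter loops it was 0.392 (0.380 to 0.404) and 0.296 (0.287 to 0.306), above the interval of the long loops in both lines. Between 500 kb and 1 Mb the ratios were 0.317 (0.291 to 0.345) and 0.239 (0.220 to 0.258), within the intervals of the long loops, so the 1 Mb limit marked no step. From 1.5 Mb upward the sorbitol lists held 11 loops against 60 in wild type (0.183, 0.0869 to 0.352) and 22 against 158 in eGFP-YAP (0.139, 0.0848 to 0.218). The intervals of 1.5 Mb and more overlapped those of 1 to 1.5 Mb (0.319, 0.255 to 0.397) in wild type and, at 0.219 to 0.314 against an upper limit of 0.218, just failed to overlap in eGFP-YAP.

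Spans were concentrated near the threshold, which the rule fixes. The median span was 1175 kb in the wild-type control, 1177.5 kb with sorbitol, 1230 kb in the eGFP-YAP control and 1190 kb with sorbitol. Loops of 2 Mb and more numbered 14 and 6 in wild type and 36 and 7 in eGFP-YAP. Just outside the limit, at 995 kb, the 4 lists held 8, 2, 10 and 4 loops, and just inside, at 1000 kb, they held 2, 1, 12 and 5. The median score percentiles there were 69.2, 75.7, 76.9 and 61.7 outside and 45.4, 55.8, 61.2 and 83.4 inside, with no common direction.

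Long loops ranked high in the caller's peak score, a value with no fixed scale that was turned into a percentile within each list. The median percentile of long loops was 72.0 (order-statistic interval 67.6 to 77.7) in the wild-type control and 84.6 (79.9 to 89.9) with sorbitol. In eGFP-YAP it was 75.6 (73.1 to 78) and 84.7 (80.6 to 87.6). Shorter loops had medians of 48.7 to 49.3 in the 4 lists. The percentile rose with span across all classes of shorter loops as well, from 24.4 to 31.1 under 100 kb to 66.1 to 76.8 between 750 kb and 1 Mb. A high rank was thus shared with the next lower span classes.

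**Figure D1:**
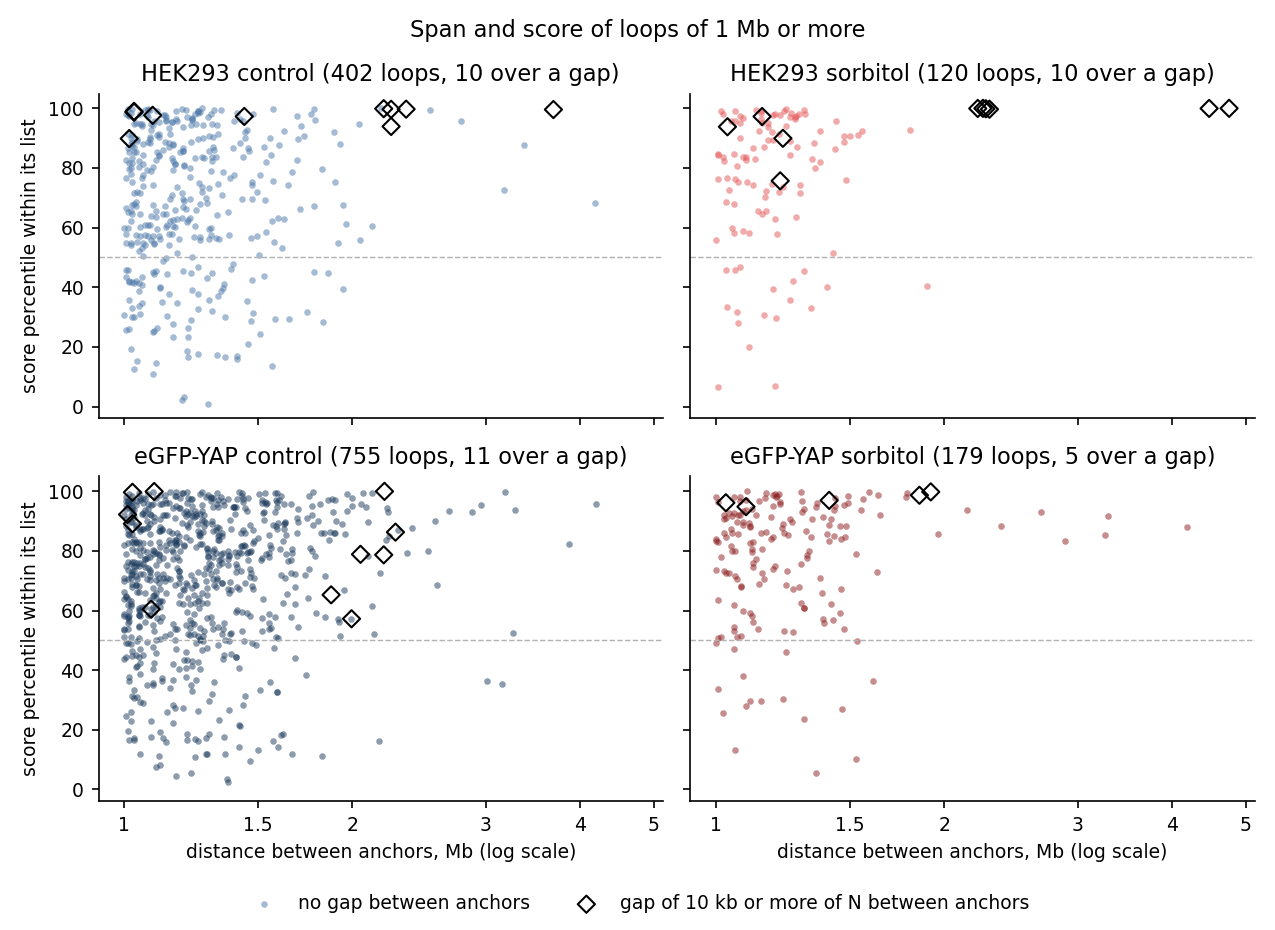
Distance between the anchors (Mb, log scale) against score percentile within the list for every long loop, 1 panel per list; open diamonds mark loops over a run of at least 10 kb of undetermined bases. Most points lie above the 50th percentile, and in the wild-type sorbitol panel the 6 loops of 2 Mb or more are all diamonds near the top.

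Some of these loops span reference gaps, runs of undetermined bases (N) in hg38, and their true length is not known from the coordinates. Counting runs of at least 10 kb between the anchors, gap loops numbered 10 of 402 (2.49%) and 10 of 120 (8.33%, 4.59 to 14.7) in wild type and 11 of 755 (1.46%) and 5 of 179 (2.79%) in eGFP-YAP. Among shorter loops the share was 0.241% to 0.345%. Without the undetermined bases the sequenced distance fell under 1 Mb in 3, 2, 3 and 1 of the long loops. Gap loops carried high scores, with median percentiles of 98.8, 99.7, 86.3 and 96.9.

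Chromosome 20 supplied 7, 4 and 3 of the gap loops in the wild-type control, wild-type sorbitol and eGFP-YAP control lists, and none with sorbitol in eGFP-YAP. One of these, chr20:29045001-29050000 to chr20:31260001-31265000 in the wild-type sorbitol list, ranked number 5 of all 5906 loops at a peak score of 17.6, and both control lists held a loop there, of 2200 and 2205 kb, at percentiles of 99.85 and 99.94. In the wild-type sorbitol list the loop from chr7:57655001-57660000 to chr7:62410001-62415000, over 4755 kb and 253 kb of N, ranked number 2, and the loop from chr10:38085001-38090000 to chr10:42560001-42565000, over 4475 kb and 374 kb of N, ranked number 4. The anchors of the chromosome 10 loop shared 11.6% of their 25-base words, the only long loop of any list above 10%. Satellite-like DNA, here at least 2 bins of 5 kb in which 60% or more of bases recur at the period of the alpha satellite of human centromeres, lay between the anchors of 9, 7, 3 and 0 long loops. How reads from repeated sequence were placed is not given in the sources used here, and its part in these calls was not tested.

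Other gap loops crossed no satellite-like DNA. The loop from BASP1, a membrane protein of growing neurites, at chr5:17215001-17220000 to chr5:18305001-18310000 or 1 bin further was called in both control lists and with sorbitol in eGFP-YAP, at percentiles of 97.6, 99.89 and 94.8. Of the 10 gap loops of the wild-type sorbitol list 4 lay in the pseudoautosomal region of X, over a gap of 184 kb. That region has a copy on Y, and how the lists handled it is not given in the sources used here. The longest loop without a gap was 4185 kb, 1900 kb, 4190 kb and 4190 kb in the 4 lists. All but 5 of the 11 wild-type sorbitol loops of 1.5 Mb or more were gap loops.

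Recurrence was then measured by looking, for each long loop, for a loop of any span with both anchors within 10 kb in another list. In wild type 13 of 402 long control loops were found again after sorbitol, 3.23% (1.90 to 5.45), against 7.81% of all loops of that list. In eGFP-YAP 72 of 755 were found again, 9.54% (7.64 to 11.8), against 9.28% of all loops. The share of all loops lay above the interval of the long loops in wild type and within it in eGFP-YAP. These shares depend on the matching distance: with identical bins it was 0.249% of long and 0.837% of all loops in wild type, and within 25 kb 6.72% and 14.5%. In eGFP-YAP it was 2.38% and 2.41% with identical bins and 11.9% and 13.8% within 25 kb. In the reverse direction 13 of 120 wild-type sorbitol long loops had a control partner, 10.8% (6.44 to 17.7), against 20.1% of all loops of that list. In eGFP-YAP 71 of 179 had one, 39.7% (32.8 to 47), against 31.6% of all loops. With identical bins these shares were 0.833% against 2.15% in wild type and 10.1% against 8.21% in eGFP-YAP, and within 25 kb 23.3% against 37.2% and 49.7% against 46.3%. Put as loops without a control partner, called sorbitol-only here, this was 107 of 120 (89.2%, against 79.9% of all loops) and 108 of 179 (60.3%, against 68.4%). Of the long control loops 389 of 402 had no sorbitol partner in wild type (96.8%, against 92.2% of all loops) and 683 of 755 in eGFP-YAP (90.5%, against 90.7%).

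Between the lines, 125 of 402 wild-type control long loops were found in the eGFP-YAP control list, 31.1% (26.8 to 35.8) against 40.2% of all loops. In the other direction it was 126 of 755, 16.7% (14.2 to 19.5) against 32.2%. With sorbitol the shares were 15 of 120, 12.5% (7.72 to 19.6) against 24.2%, and 15 of 179, 8.38% (5.14 to 13.4) against 25.7%. In all 4 directions the share of all loops lay above the interval of the long loops. Of the wild-type control long loops 41 of 402 were found among eGFP-YAP sorbitol loops, 10.2% against 8.12% of all loops. Of the eGFP-YAP sorbitol long loops 44 of 179 were found in the wild-type control list, 24.6% against 22.1% of all loops. For the remaining pair of lists, 21 of 120 of its long loops were found in the eGFP-YAP control, 17.5% against 23.7%, and 21 of 755 eGFP-YAP control long loops were found in it, 2.78% against 7.37%.

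Among loops of high score, long loops were found again at lower shares than shorter loops in the comparisons given here, except for eGFP-YAP sorbitol loops looked for in their own control. Among the top 10% of each list by score, 4 of 98 wild-type control long loops (4.08%) were found again with sorbitol, compared with 359 of 1420 shorter loops (25.3%). In eGFP-YAP it was 33 of 174 (19.0%) compared with 524 of 1723 (30.4%). Between the control lists 45 of 98 (45.9%) and 41 of 174 (23.6%) long loops of the top 10% recurred, against 73.4% and 65.3% of shorter loops. With sorbitol in wild type 4 of 48 had a control partner (8.33%, 3.29 to 19.6), against 25.1% of shorter loops. In the eGFP-YAP sorbitol list 32 of 62 long loops of the top 10% had a partner in the control (51.6%, 39.5 to 63.6), beside 51.0% of shorter loops. In the wild-type sorbitol list 9 of those 62 had a partner (14.5%, 7.83 to 25.3), against 46.0% of shorter loops.

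**Figure D2:**
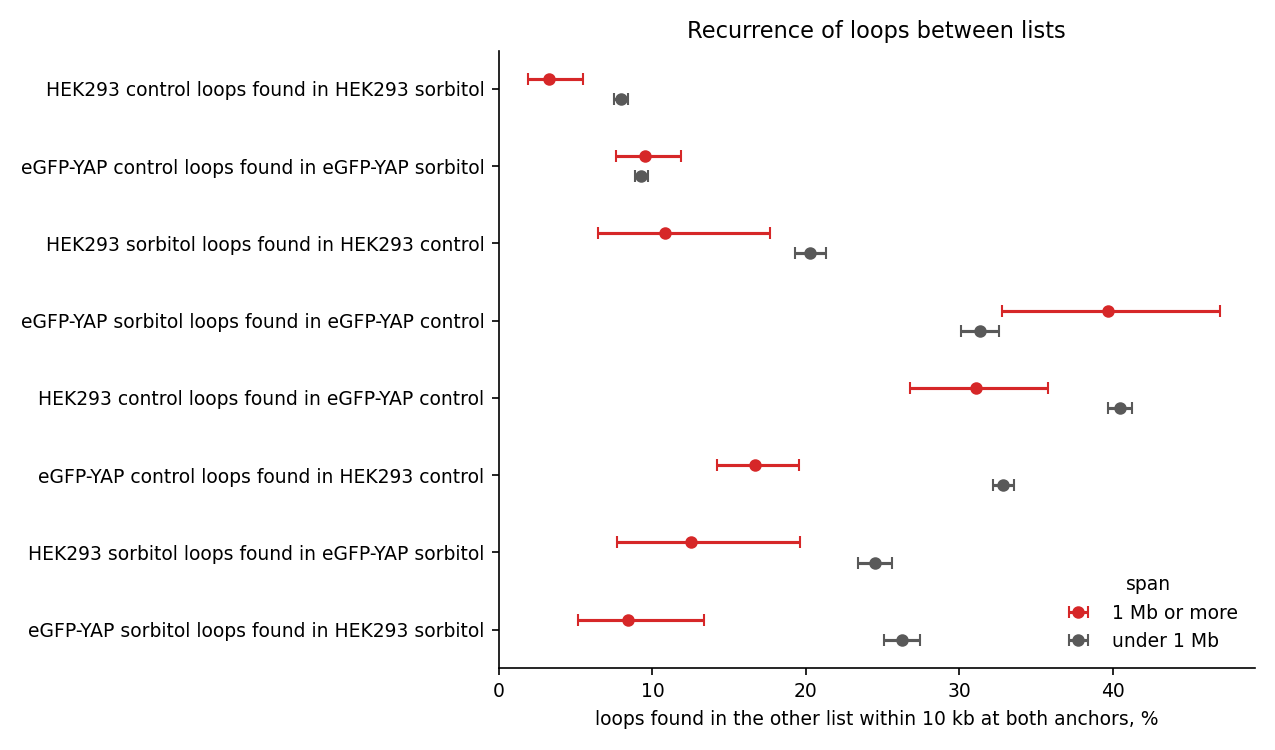
Share of loops (percent) found in another list within 10 kb at both anchors, for long loops (red) and shorter loops (grey), with Wilson 95% intervals. Long loops lie to the left of shorter loops in 6 of the 8 comparisons, and the eGFP-YAP sorbitol loops found in the eGFP-YAP control are the highest red point at 39.7%.

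Joining matched loops over the 4 lists gave 1215 loop positions, of which 1022 were in a single list, 144 in 2, 44 in 3 and 5 in all 4. The largest shared class was the 89 positions of both control lists alone. A further 31 were in both controls and the eGFP-YAP sorbitol list, and 35 were in both eGFP-YAP lists alone. Both sorbitol lists alone shared 3 positions, and both wild-type lists alone shared 1.

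**Figure D3:**
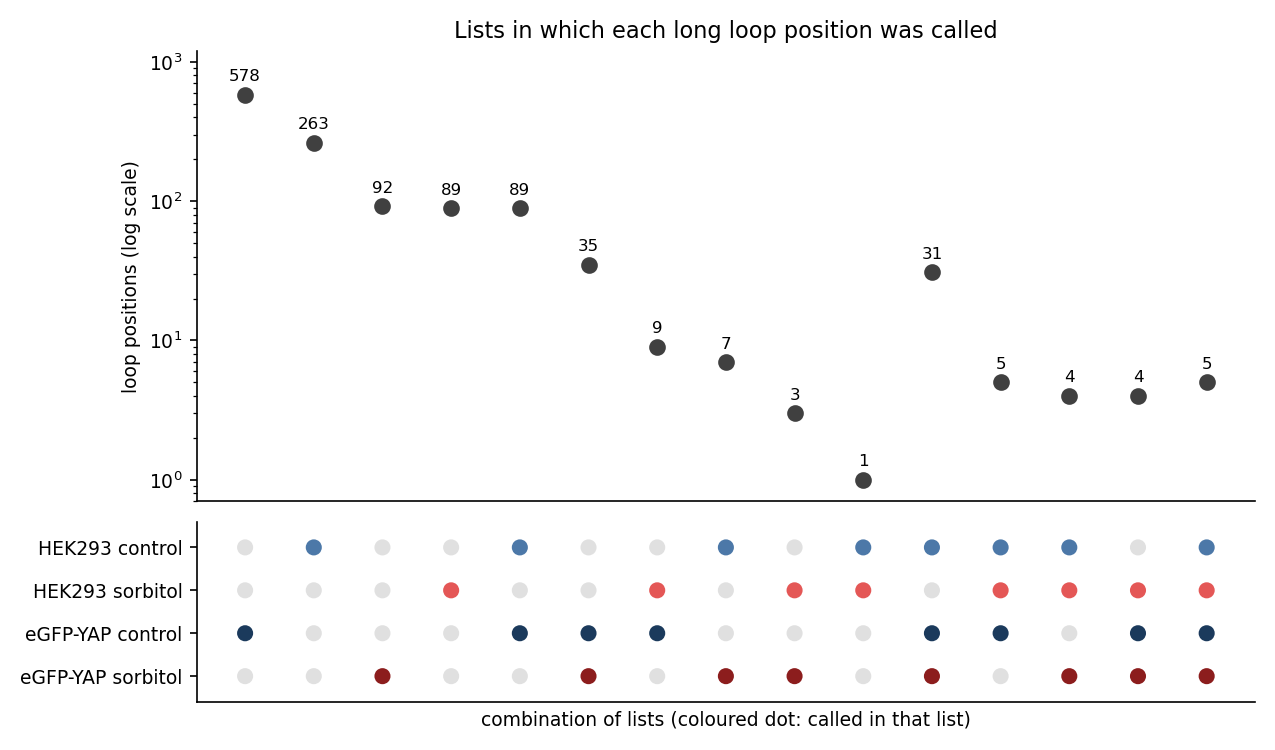
Number of long loop positions (log scale) for each combination of lists, with coloured dots below marking the lists that held the position. Positions of 1 list dominate, and 89 positions were held by both control lists alone but 3 by both sorbitol lists alone.

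The long loop in all 4 lists with the highest scores reached the HOXA cluster, which encodes homeodomain transcription factors that pattern the body axis. Its left anchor lay at chr7:25855001-25860000 in 3 lists and at chr7:25865001-25870000 with sorbitol in eGFP-YAP, outside protein-coding genes. Its right anchor lay within HOXA9 and an overlapping unnamed gene, and in both sorbitol lists it held the motif match shown above. The span was 1315 and 1305 kb in wild type without and with sorbitol and 1310 and 1295 kb in eGFP-YAP, at percentiles of 99.44, 99.47, 97.7 and 99.78. With sorbitol the same left anchor had further long loops in both lines. In wild type a loop of 1275 kb ended at the start of HOXA4 (percentile 97.5). In eGFP-YAP a loop of 1005 kb (percentile 96.4) ended within SKAP2, a signalling adaptor gene. Neither control list held a second long loop from this anchor. The loops to HOXA4 and SKAP2 were each called in 1 list.

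The other 4 loops of all lists had few genes at their ends. On chromosome 10 a loop of 1245 to 1255 kb from chr10:35625001-35630000 to chr10:36875001-36880000 (wild-type control) had no protein-coding gene at either end and percentiles of 90.7 to 99. On chromosome 13 a loop of 1025 to 1035 kb from chr13:69535001-69540000 likewise had none, with motif matches facing each other at its wild-type control anchors. On chromosome 3 a loop of 1290 to 1305 kb ended within ULK4, which encodes a kinase-like protein, with 2 plus-strand motif matches at its left anchor in 3 lists. On chromosome 6 a loop of 1135 to 1155 kb joined the TFAP2B anchor or the bin beside it to PKHD1, the gene mutated in recessive polycystic kidney disease, at percentiles of 64.4, 87.1, 86.7 and 80.4. The wild-type lists are joined here only through the eGFP-YAP loops, since their own right anchors lay more than 10 kb apart. TFAP2B encodes the transcription factor AP-2 beta, which acts in neural crest and kidney. Within the same stretch further long loops joined the TFAP2B start to PKHD1 in 3 of the lists: 2 with sorbitol in wild type, 2 in the eGFP-YAP control and 1 with sorbitol in eGFP-YAP.

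The 3 positions of both sorbitol lists alone had identical anchor bins in both lines. The highest-scoring joined the starts of GTPBP6 and SLC25A6, genes of a mitochondrial GTP-binding protein and of an ADP/ATP carrier of the inner mitochondrial membrane. It ran from chrX:315001-320000 to chrX:1390001-1395000 over 1075 kb in the pseudoautosomal region, at percentiles of 95 in wild type and 98.1 in eGFP-YAP. The wild-type sorbitol list held 6 long loops in that region, 4 of them over the gap, compared with 0 in the wild-type control, 1 in the eGFP-YAP control and 1 with sorbitol in eGFP-YAP. The second joined PTPRU, a receptor tyrosine phosphatase gene, to MATN1, which encodes a cartilage matrix protein, over 1435 kb at percentiles of 86.2 and 97.6. The wild-type control list held a loop of 1480 kb from the start of PTPRU to the same MATN1 anchor, at percentile 31.3. In that region eGFP-YAP had 4 long loops without and 7 with sorbitol, and wild type had 2 in each. The third ran from chr4:120155001-120160000 to chr4:121250001-121255000, outside genes, at percentiles of 83.6 and 97.1.

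Of the 89 positions of both control lists alone, the highest-scoring joined the starts of YARS2, the mitochondrial tyrosyl-tRNA synthetase, and ALG10, a glucosyltransferase of N-glycan assembly. It had identical bins in both lines, from chr12:32755001-32760000 to chr12:34020001-34025000 over 1265 kb, at percentiles of 99.94 and 99.85. Neither sorbitol list held a loop within 10 kb of it. The next by mean percentile ran from chr20:29320001-29325000 to chr20:30350001-30355000 in wild type over 1030 kb, and over 1025 kb in eGFP-YAP. It crossed 53.5 kb of N, which left 976.5 and 971.5 kb of sequence, at percentiles of 98.7 and 99.63. Another joined a bin within CNGA2, an olfactory ion channel gene, to a gene-free bin on X over 1075 kb in wild type (1065 kb from the next bin in eGFP-YAP). NYAP2 was joined to a gene-free bin on chromosome 2 over 1135 and 1130 kb, and KIF26B to SMYD3 on chromosome 1 over 1290 and 1300 kb. RFC3 was joined to NBEA on chromosome 13 over 1230 kb, and DYSF, a muscle membrane repair gene, to EXOC6B on chromosome 2 over 1025 and 1030 kb. The loop of 1005 and 1010 kb from chr1:104780001-104785000, the gene-free anchor shown above, was at percentiles of 98.1 and 96.8.

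The longest recurrent loop joined RGS7, a regulator of G protein signalling, to EFCAB2 on chromosome 1. It ran from chr1:240885001-240890000 to chr1:245070001-245075000 in the wild-type control (4185 kb, percentile 68.3) and 1 bin further in eGFP-YAP without and with sorbitol (4190 kb, percentiles 95.8 and 88.0). It passed 22 gene starts and had a plus-strand motif match at its left anchor. The eGFP-YAP control also held a loop of 3865 kb from PACSIN1, an endocytosis gene, to BTBD9 across 50 gene starts. With sorbitol in wild type the longest loops without a gap were 1900 kb, ending within TAFA4, and 1800 kb, from SMARCAL1 to the start of ARPC2, a subunit of the actin-nucleating Arp2/3 complex.

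Gene starts were more frequent at long-loop anchors of the sorbitol lists than of the control lists in both lines, with intervals that did not overlap, although the order turned in wild type from 1.5 Mb upward. The share of anchors holding the start of a protein-coding gene was 34 of 804 in the wild-type control (4.23%, 3.04 to 5.85) and 39 of 240 with sorbitol (16.2%, 12.1 to 21.4). In eGFP-YAP it was 60 of 1510 (3.97%, 3.10 to 5.08) and 42 of 358 (11.7%, 8.80 to 15.5). Over all 5 kb bins of the genome without N it was 3.07%. Shorter loops had 5.79% and 21.4% in wild type and 7.85% and 26.8% in eGFP-YAP, so in each list long loops had fewer gene starts than shorter ones. In the eGFP-YAP sorbitol list the share fell with span, from 39.4% under 100 kb to 12.1% at 1 to 1.5 Mb. In the wild-type sorbitol list it fell from 29.5% under 100 kb to 12.3% at 500 to 750 kb and was 16.4% and 17.4% in the next 2 classes. Control long loops were at 3.66% and 4.19% at 1 to 1.5 Mb. From 1.5 Mb upward wild-type control anchors held a gene start in 9 of 120 (7.50%, 4.00 to 13.6) and wild-type sorbitol anchors in 1 of 22 (4.55%, 0.807 to 21.8), with intervals that overlapped. Most of these 9 control anchors belonged to loops of 1625, 1695, 1705 and 1780 kb at the histone genes of chromosome 6, described below. The turn in wild type thus rested on 1 gene cluster.

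In eGFP-YAP 36 of the 42 sorbitol anchors with a gene start belonged to sorbitol-only long loops. Of these 16.7% of anchors (36 of 216, 12.3 to 22.2) held a gene start, compared with 4.23% (6 of 142, 1.95 to 8.91) of the sorbitol long loops with a control partner. In wild type the sorbitol-only share was 16.8% (36 of 214, 12.4 to 22.4), and the 13 loops with a control partner had 3 such anchors of 26. Shorter loops showed the same order, with 31.7% of sorbitol-only and 16.1% of partnered anchors in eGFP-YAP and 23.7% and 12.6% in wild type. Of the sorbitol-only long loops 26 of 107 in wild type (24.3%) and 42 of 108 in eGFP-YAP (38.9%) had a control anchor within 10 kb of each end, although no control loop joined the pair. Both ends were away from any control anchor in 29.9% and 15.7%. Over all shorter sorbitol loops, with or without a control partner, both ends were near a control anchor in 36.4% and 48.1% and neither end in 23.5% and 16.5%. Over all long sorbitol loops these shares were 32.5% and 63.1%, and 26.7% and 9.50%. What share the number of control anchors alone would give was not tested.

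**Figure D4:**
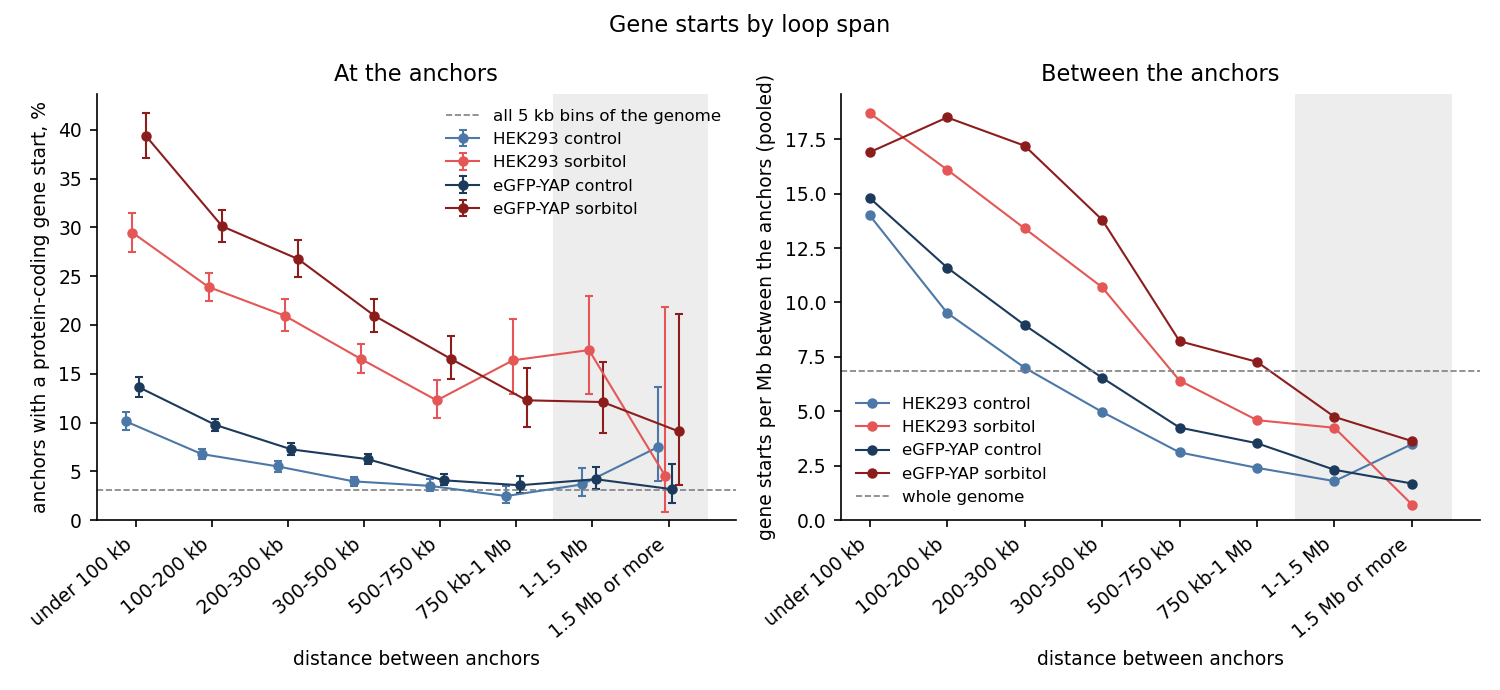
Left, percent of anchors with a protein-coding gene start by distance between anchors, with Wilson 95% intervals; right, gene starts per Mb between the anchors, pooled over the loops of each class; the shaded classes are the long loops and dashed lines the genome. Both measures are lower in the long classes than under 100 kb in every list. From 1 to 1.5 Mb to the class above, both rise again in the wild-type control. The share of wild-type sorbitol anchors rises from 12.3% at 500 to 750 kb to 17.4% at 1 to 1.5 Mb. At 1 to 1.5 Mb the sorbitol anchors (17.4% and 12.1%) stay above the control anchors (3.66% and 4.19%). Most wild-type control anchors with a gene start from 1.5 Mb upward lay at histone genes.

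Long loops crossed gene-poor DNA. The median loop had 0.941 and 1.46 gene starts per Mb between its anchors in wild type and 0.980 and 1.90 in eGFP-YAP, compared with 4.17, 8.0, 5.00 and 9.52 for shorter loops and 6.86 over the genome. Pooled over loops, which is how the genome value is made, it was 2.17 and 3.63 in wild type and 2.13 and 4.52 in eGFP-YAP, compared with 5.54, 10.9, 6.80 and 13.1 for shorter loops. No gene start at all lay between the anchors in 13.2%, 14.2%, 12.7% and 7.26% of long loops, below the 29%, 20.4%, 24.3% and 16.2% of shorter loops, which cover less DNA each. Median GC of the anchors was 39.4% and 41.3% in wild type and 39.5% and 41.9% in eGFP-YAP, against 39.7% over the genome and 42.5% to 47% at shorter loops. Chromosome 13, with 3.30 gene starts per Mb, had 44.9 and 57.2 long control loops per 100 Mb, the highest value in each control list. Density did not follow gene starts on every chromosome. Chromosome 18, with 3.33 gene starts per Mb, had 6.26 and 31.3, and chromosome 4, with 3.99, had 8.96 and 16.3. The gene-richer chromosome 1, with 8.96 gene starts per Mb, had 21.7 and 30.0. Chromosome 19, with 25.3 gene starts per Mb, had 0 and 1 long control loops in all and 0 and 5 with sorbitol. The eGFP-YAP sorbitol list had its highest density on chromosome 21, at 17.6 per 100 Mb.

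A gene start at both ends was rare and mostly of 1 list. It was found in 6 and 7 long loops of wild type (1.49% and 5.83%) and 3 and 6 of eGFP-YAP (0.397% and 3.35%). Among shorter loops the shares were 0.602% and 8.85% in wild type and 1.26% and 13.7% in eGFP-YAP, so the wild-type control was the one list in which long loops had the higher share. Of its 6 such loops 4 joined histone genes of 1 cluster, described below, so the higher share rested on that cluster. With sorbitol in wild type these joined SMYD2, a lysine methyltransferase gene, to KCTD3, ZMYND10 to MANF, a gene of the endoplasmic reticulum stress response, ZNF862 to ABCB8, STK32C and LRRC27 to MTG1, TIMM10 to LPXN and ZFP91, an unnamed gene to MED31, a Mediator subunit, and GTPBP6 to SLC25A6. With sorbitol in eGFP-YAP they joined PTPRU to MATN1, MAZ, a zinc finger factor gene, to FBXL19, LENG9 to ZNF784, CFAP410 to COL18A1, GTPBP6 to SLC25A6 and an unnamed gene to TPRG1. Only the TPRG1 loop among these 13 had a partner in the control list of its own line. In all, 161 genes started in long-loop anchors, 143 of them in 1 list, 15 in 2, 2 in 3 and 1 (TFAP2B) in 4. The sorbitol lists shared 4 genes, 9.09% of the 44 in wild type and 9.52% of the 42 in eGFP-YAP. Of the genes at shorter-loop anchors, which are far more numerous, 64.6% were in 1 list, and the sorbitol lists shared 42.0% and 38.8% of theirs. IGFBP3, which encodes a carrier of insulin-like growth factors, started in anchors of long loops of 1165 and 1250 kb with sorbitol in wild type, 1165 kb in the eGFP-YAP control and 1165 and 1260 kb with sorbitol in eGFP-YAP. In the wild-type control the 2 long loops there had their left anchors 2 and 4 bins away from the one that holds its start.

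Histone genes, which are clustered on chromosome 6 and gather at the histone locus body, stood out in the wild-type control. They accounted for 9 of its 34 anchors with a gene start and for 0 in the other 3 lists, compared with 0.403% to 0.455% of gene-start anchors of the shorter loops of all lists. In 4 loops both ends held histone gene starts. These ran from H4C2 to H2BC11 and H2AC11 over 1105 kb (percentile 99.14), from H3C2 and H2AC4 to H3C10 and H2AC14 over 1780 kb (99.8), and from H3C4, H2AC7 and H2BC7 to H4C11 over 1625 kb (92.5) and to H3C12, H2AC17 and H2BC17 over 1695 kb (89.6). In all 16 histone genes took part. None of the 6 long wild-type control loops of this region had a partner in the wild-type sorbitol list, which held 0 long and 23 shorter loops there. The eGFP-YAP control held 0 long and 37 shorter loops in the region, so the long contacts between histone genes were called in 1 list.

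The other gene lists gave small counts. Developmental transcription factors started at 3 and 3 anchors in wild type, with CDX2, SOX4 and TFAP2B in the control, and at 6 in the eGFP-YAP control, with MEIS1, POU3F2, SOX9 and TFAP2B. They made up 4.76% to 10.0% of gene-start anchors at long loops of the 4 lists, beside 1.24% to 4.21% at shorter loops, on few anchors. Anchors were counted once per loop, and TFAP2B alone supplied 1 of 3, 2 of 3, 3 of 6 and 1 of 2 of them. The higher share thus rested in large part on 1 gene. Zinc finger genes started at 0 control anchors in both lines and at 2 sorbitol anchors in each line, and olfactory receptor genes at 0, 0, 1 and 1. At shorter loops zinc finger genes made up 1.40%, 2.14%, 1.71% and 2.24% of gene-start anchors in the 4 lists, and olfactory receptor genes 0.121% to 0.936%. The counts at long loops are too small to show a difference between lists. Ribosomal protein and clustered protocadherin genes started at 0 long-loop anchors, and since they made up 0.0403% to 1.14% of gene-start anchors at shorter loops, these counts show no difference.

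A few long loops lay inside 1 gene: 6 and 3 in wild type (1.49% and 2.5%), 6 and 0 in eGFP-YAP (0.795% and 0%). Among shorter loops 11.3%, 7.55%, 9.52% and 4.91% did. PRKG1, which encodes a cyclic GMP-dependent kinase, held 2 in each control list, and the 1215 kb loop in wild type and the 1210 kb loop in eGFP-YAP matched. GPC6, a glypican gene, held 1 in each control list. MACROD2 held 1 without and 1 with sorbitol in wild type, of 1505 and 1060 kb. LRP1B, a very long lipoprotein receptor gene, held 2 with sorbitol in wild type.

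The CTCF motif was more frequent at long-loop anchors than in the genome in all 4 lists, and it was higher in eGFP-YAP than in wild type in both conditions, with intervals that did not overlap. It was found in 20.4% (17.8 to 23.3) of wild-type control and 17.5% (13.2 to 22.8) of wild-type sorbitol anchors, and in 29.8% (27.5 to 32.2) and 33.5% (28.8 to 38.6) of eGFP-YAP anchors, compared with 8.69% of all 5 kb bins. Shorter loops had 25%, 21.3%, 34.2% and 28%. Long loops were thus below shorter loops in 3 lists and above them with sorbitol in eGFP-YAP. With sorbitol in wild type the shorter-loop share lay within the interval of the long loops, so that list showed no clear difference. In the eGFP-YAP sorbitol list the long loops with a control partner had the motif at 48.6% of anchors (40.5 to 56.7) and the sorbitol-only long loops at 23.6% (18.4 to 29.7), and shorter loops showed the same order at 45.3% and 20.2%. A motif match describes the sequence and shows no binding.

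Where each anchor had matches on a single strand, the pairs mostly faced each other. This was so in 16 of 21 long loops of the wild-type control (76.2%, 54.9 to 89.4), 3 of 6 with sorbitol, 60 of 67 in the eGFP-YAP control (89.6%, 80.0 to 94.9) and 20 of 24 with sorbitol (83.3%, 64.2 to 93.3). For shorter loops it was 67.2%, 54.5%, 75.8% and 70.7%, so in 3 lists the long loops had the higher share, and in the eGFP-YAP control it lay beyond the interval. Among eGFP-YAP control long loops found again with sorbitol it was 16 of 16 (80.6 to 100), and at the anchors as called with sorbitol 15 of 17 (65.7 to 96.7). For shorter loops called in both conditions it was 362 of 421 (86.0%) and 280 of 343 (81.6%), within these intervals. Matches facing each other were present in at least 1 list at 18 of the 48 positions of 3 or 4 lists examined for sequence. Each position had 3 or 4 anchor pairs that could qualify. The share at other positions was not computed, so this count shows no excess.

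Some anchors held several long loops. In the wild-type control 28 of 673 separate anchor positions had 3 or more, in the eGFP-YAP control 57 of 1189, and with sorbitol 3 of 214 and 8 of 316. The lists differ in the number of long loops, from 120 to 755, which moves with these counts. Its part in the difference was not tested. The busiest position in both controls lay beside the start of TFAP2A, the gene of the transcription factor AP-2 alpha, with 6 long loops at chr6:10425001-10440000 in wild type and 7 at chr6:10420001-10445000 in eGFP-YAP. All 13 partners lay on the left, 1080 to 2290 kb away, and outside protein-coding genes. In wild type a position in PDGFRA, the platelet-derived growth factor receptor alpha gene, had 5 long loops, 4 of them ending within SCFD2. In the eGFP-YAP control PAQR3 and a position in PLCL1 had 6 each, and the PAQR3 loops ended among others within FGF5 and BMP3 and at the start of CFAP299. With sorbitol no position had more than 3. Among those with 3 were TFAP2B, MATN1, COL12A1, which encodes a fibril-associated collagen, ZXDC, ASMTL and a position nearest OXGR1 on chromosome 13 that had 3 in both lines.

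One stretch on chromosome 10 held long loops in every list. Around TAF3, which encodes a TFIID subunit, and up to a position in the gene-free DNA beyond GATA3, a transcription factor gene, the lists held 8, 3, 6 and 3 long loops. Loops of 1440 kb with sorbitol in wild type and 1430 kb in both eGFP-YAP lists joined TAF3 to chr10:9300001-9305000 or the next bin, at percentiles of 95.8, 98.5 and 93.7. A loop of 1785, 1775 and 1780 kb from chr10:7520001-7525000 or the next bin to the same place was in both controls and with sorbitol in eGFP-YAP, at percentiles of 96.2, 99.74 and 98.1. Only 2 shorter loops lay in this stretch with sorbitol in wild type and 0 in eGFP-YAP, against 15 and 11 in the controls.

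Long loops were partly built from anchors of shorter loops. In the wild-type control 50.7% of long-loop anchors (47.3 to 54.2) lay within 10 kb of an anchor of a shorter loop of the same list, and with sorbitol 37.9% (32.0 to 44.2) did. In eGFP-YAP it was 62.8% (60.4 to 65.3) and 28.2% (23.8 to 33.1). The lists differ in the number of shorter loops, from 5398 to 18211, which moves with these shares, and its part in the difference was not tested.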

How the data were processed

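In situ Hi-C of HEK293 cells used MboI digestion, biotin fill-in and proximity ligation, per the labels' protocols. The authors deposited 1 loop list per condition, with 2 anchors of 5 kb, a peak score and a probability of enrichment, a fraction that is at least 0.900 in every loop, per the file headers and values. The score is used as deposited by the authors, as a rank within its list. The submitters' processing notes name hg38 and GRCh38; the aligner, the loop caller's settings and which samples entered each list are not given in the sources used here, and the depth behind each list is unknown. All anchors lay within hg38 chromosome lengths.

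Long loops were taken by span. Gene starts are those of 19970 protein-coding genes of GENCODE release 44, and a gene start counts when it lies in the 5 kb anchor. Loops matched when both anchors lay within 10 kb, and matches were chained over the 4 lists, so 2 members of a position may lie further apart. Shares have Wilson and ratios exact Clopper-Pearson 95% intervals, which treat loops as independent draws, although neighbouring loops share reads. The scripts used Python 3.11.15, numpy 2.4.6, pandas 2.3.3, scipy 1.17.1 and networkx 3.6.1 and were tested on simulated lists. Promoters were matched to RefSeq by symbol.

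The members and lists were chosen with earlier results of these data known. Loops named by rule are those of all 4 lists, of both sorbitol or both control lists alone by mean percentile, the 2 longest of each list with and without a gap, and the anchors with most long loops. The histone, IGFBP3, HOXA side, MATN1, pseudoautosomal and chromosome 10 loops, the loops with a gene start at both ends or inside 1 gene, and the choice of sequences were made after their values were seen. Repeat-masked shares were planned and could not be computed, because the reference carries no masking. The other 18 of 32 samples were not analysed here. One further loop is not reported here. Alternatives covered the minimum span, the matching distance, gaps, anchor width, gene set, motif mismatches, score and the merging of neighbouring loops.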

Additional observations from a re-analysis of the deposited data

Results flagged for a closer look

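The 2 lines moved in opposite directions between control and sorbitol on 2 measures of long loops. The share of long-loop anchors with a CTCF motif match changed by -2.9 percentage points with sorbitol in wild type and by 3.72 in eGFP-YAP. With no mismatch allowed in the motif this opposite movement was lost, since the share went from 4.10% to 4.17% in wild type and from 7.55% to 10.9% in eGFP-YAP. It was also lost in eGFP-YAP with the 5577 highest-scoring loops of each list, at 33.6% and 33.5%. The median span of long loops changed by 2.5 kb in wild type and by -40.0 kb in eGFP-YAP. Each line has 1 pooled list per condition, so this opposite movement was not tested, and each of these changes is smaller than the counting intervals of the values it is taken from.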

How the results depend on the processing

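No paired analysis was possible because the lists are pooled and their columns carry no replicate, and for the same reason no replicate could be left out. Of 136 values recomputed under an alternative, 87 stayed within the main value's 95% interval or, for numbers of loops, within 1.5 times of it, and 49 did not; differences between conditions are a separate matter, and 3 of them turned, as given below. In what follows values are in the order wild-type control, wild-type sorbitol, eGFP-YAP control, eGFP-YAP sorbitol where 4 are given. With a minimum span of 1.5 Mb the lists held 60, 11, 158 and 22 loops, and the sorbitol to control ratios of the lines were 0.183 (wild type) and 0.139 (eGFP-YAP). At that span 8.33%, 54.5%, 3.8% and 9.09% crossed a gap, 7.50% of wild-type control and 4.55% of wild-type sorbitol anchors held a gene start, and 10.0%, 9.09%, 27.2% and 27.3% of anchors held a motif match. The share of control loops called again with sorbitol was then 0.0% in wild type (0 of 60) and 6.33% in eGFP-YAP, and 100% of wild-type sorbitol loops lacked a control partner. The order of the wild-type gene-start shares, control below sorbitol, thus turned at this span, where most control anchors with a gene start lay at histone genes. With any run of N from 100 bases counted as a gap, 6.70% of eGFP-YAP sorbitol loops crossed one. Anchors widened by 5 kb on each side held gene starts in 9.95%, 29.6%, 10.4% and 24.6% and motif matches in 43.9%, 37.1%, 54.2% and 58.7%. With all annotated genes the gene-start shares were 10.3%, 23.3%, 10.7% and 16.8%. With no mismatch allowed the motif shares were 4.10%, 4.17%, 7.55% and 10.9%, so the wild-type fall with sorbitol turned into a rise. With identical bins required, 0.249% of wild-type and 2.38% of eGFP-YAP control loops were called again, and 99.2% and 89.9% of sorbitol loops lacked a partner; within 25 kb these were 6.72%, 11.9%, 76.7% and 50.3%. All loops at the same matching distances were added after seeing the data. In 2 further alternatives chosen then, the 5577 highest-scoring loops of each list held 246 wild-type and 440 eGFP-YAP control long loops, of which the eGFP-YAP ones were called again in 14.1% and held a motif match at 33.6% of anchors, just above the 33.5% with sorbitol, and counting neighbouring anchors once gave 32.5% for that motif share. Widening anchors, more genes, a stricter motif or a changed matching distance move these shares by construction; the cause of the other shifts was not tested. The depth behind each list is unknown.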
